A study of Mus musculus with 40 samples.

Results

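Molecular chaperones and their partners were followed in mouse embryos exposed in culture to 4-hydroperoxycyclophosphamide, a pre-activated form of the DNA-alkylating drug cyclophosphamide. Members were all probes annotated to a single gene of the heat shock protein, J protein, CCT, BAG, FKBP, prefoldin or cyclophilin A to H names, plus Tcp1, Serpinh1, Stip1, Ahsa1 and St13, without Dnajc9 and Dnajc3. This gave 72 of 6970 named genes, with 135 of 15279 probes, and of these 93 probes (50 genes) lay on array design 1 and 42 probes (33 genes) on array design 2, with 11 genes on both. Every member probe had a value in all 5 replicates, and no filter on low values was applied. Hspa1a, Hspa1b, Hspe1 and Hsp90ab1 were not among the probes named here.

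Treated embryos received 40 µM of the drug for 5 h at 37 °C, and control embryos were kept without drug at the same temperature. The sources used here do not state strain, embryonic stage, sex or the number of embryos in a sample. Total RNA of treated and control embryos was hybridised together on 40 2-colour cDNA arrays, 20 of each design, from 5 replicates per design with both dye orientations and 2 readouts of each slide. The labels mark these plain and B, and the sources used here do not say what B stands for. Nothing in the labels says that replicates came from separate cultures, or that replicate 1 of one design shares embryos with replicate 1 of the other, so the p-values reflect scatter among these samples only, and that scatter can be technical. The arrays give ratios without levels, so the tissue could not be checked against marker levels, and the number of arrays limits the precision.

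All values are log2 ratios of treated over control embryos set against the median probe of the same array, where 1 unit is a doubling if the deposited logarithms are base 2. The sources used here do not give the numerator or the base. Channel 1 over channel 2 was taken as the likely reading, partly because Ccng1, a target of the tumour suppressor p53, then had log2 ratios of 1.39 to 2.90. With the sign turned, each size below stays and each rise becomes a fall. As the numerator is not given, the direction is not settled. Within one dye orientation, some pairs of arrays from different replicates correlated below -0.3 over all probes. These were 1 of 40 pairs on array design 1 (treated embryos in channel 1, lowest -0.31) and 5 of 40 on array design 2 (treated embryos in channel 2, lowest -0.54). One readout of replicate 4 on array design 1 lacked 786 values (10.2%) and was left out.

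Chaperones bind unfolded protein and let it fold. HSP90 and HSP70 work as ATP-driven machines, J proteins hand clients to HSP70, HSP110 and BAG proteins release its nucleotide, and Stip1 and Ahsa1 serve HSP90. The chaperonins Hspd1 (mitochondrial) and CCT (cytosolic) enclose their clients, and FKBPs and cyclophilins are prolyl isomerases. Many of these genes are activated by heat shock factor 1, which binds heat shock elements made of alternating GAA and TTC units.

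Promoter sequences from RefSeq (GRCm38.p6, 250 bases before to 50 after a transcription start, sense strand) were searched for 2 neighbouring units, GAANNTTC or TTCNNGAA. Both are their own reverse complement, so the search covers both strands, and neighbouring matches can overlap by a unit. Of the 72 member genes 56 had a window, and 13 of these (23.2%) held a pair of units, compared with 17.0% of all 27025 genes with a window. Per window, 15 of 70 member windows (21.4%) and 15.1% of all 32851 windows held a pair. A run of 3 units, a pair continued by NNGAA or NNTTC, occurred in windows of 3 member genes (5.36%), Hspd1, Hsph1 and Dnajb6, and of 0.662% of all genes. The 250 bases before the start are shown for these and for 3 members with a single pair that rose on the arrays, with GAA and TTC of each pair in capitals.

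Hspd1, chr1:55087933-55088182 (- strand): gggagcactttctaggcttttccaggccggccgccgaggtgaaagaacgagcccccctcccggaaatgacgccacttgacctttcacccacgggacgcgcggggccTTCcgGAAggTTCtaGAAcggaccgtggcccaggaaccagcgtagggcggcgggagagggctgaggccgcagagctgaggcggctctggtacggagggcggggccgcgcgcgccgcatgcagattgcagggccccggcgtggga
Hsph1, chr5:149636337-149636586 (- strand): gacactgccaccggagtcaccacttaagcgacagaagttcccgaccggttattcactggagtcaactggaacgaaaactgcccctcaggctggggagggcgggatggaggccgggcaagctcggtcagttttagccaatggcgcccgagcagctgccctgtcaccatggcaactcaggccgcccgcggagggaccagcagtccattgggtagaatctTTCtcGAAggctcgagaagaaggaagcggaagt
Dnajb6, chr5:29735648-29735897 (+ strand): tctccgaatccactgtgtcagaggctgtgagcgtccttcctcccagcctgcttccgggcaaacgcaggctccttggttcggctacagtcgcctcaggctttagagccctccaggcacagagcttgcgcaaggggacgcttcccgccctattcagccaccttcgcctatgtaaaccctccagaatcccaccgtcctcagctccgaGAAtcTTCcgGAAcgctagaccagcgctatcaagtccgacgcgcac
Dnaja1, chr4:40722218-40722467 (+ strand): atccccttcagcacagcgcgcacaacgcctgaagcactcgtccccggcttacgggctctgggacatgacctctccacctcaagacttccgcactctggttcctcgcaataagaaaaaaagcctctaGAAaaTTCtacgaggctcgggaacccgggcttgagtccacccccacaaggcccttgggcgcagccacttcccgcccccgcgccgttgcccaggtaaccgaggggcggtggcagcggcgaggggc
Fkbp4, chr6:128438657-128438906 (- strand): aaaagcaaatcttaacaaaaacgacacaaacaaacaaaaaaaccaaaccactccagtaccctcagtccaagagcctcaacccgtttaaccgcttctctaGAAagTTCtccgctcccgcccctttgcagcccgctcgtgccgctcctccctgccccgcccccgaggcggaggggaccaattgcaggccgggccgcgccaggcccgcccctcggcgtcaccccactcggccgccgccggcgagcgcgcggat
Cct5, chr15:31601847-31602096 (- strand): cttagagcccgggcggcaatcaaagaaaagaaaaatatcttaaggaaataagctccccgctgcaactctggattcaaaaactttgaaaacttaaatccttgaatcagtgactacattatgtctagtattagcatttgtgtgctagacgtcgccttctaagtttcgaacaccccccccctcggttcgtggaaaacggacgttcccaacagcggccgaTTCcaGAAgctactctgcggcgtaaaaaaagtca

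Hspd1 held 4 units in a row, from 144 bases before the start, in 1 of its windows. Dnajb6 held 3 units from 46 bases before the start of the window shown, and the same run began 127 bases before another of its starts. The run of 3 units of Hsph1 lay after the start and is not shown, and the pair in the printed stretch began 33 bases before it. The pairs of Dnaja1, Fkbp4 and Cct5 began 124, 151 and 34 bases before the start. Hspb1 held separate pairs that began 117 and 97 bases before its start, while the windows of Serpinh1, Stip1, Dnajb1 and Ahsa1 held no such pair. Hspa8 and Hsp90aa1 were not among the windows. By the rise on the arrays, at least 1 probe was called higher for 2 of the 3 genes with 3 units, for 7 of 10 genes with a pair only, for 16 of 43 genes with neither and for 8 of 16 genes without a window. Their median log2 ratios were 0.41, 0.20, 0.11 and 0.15. Over all probes, 10.2% on array design 1 and 19.8% on array design 2 were called higher. No count per gene was made outside the members, and a gene with more probes has more chances of a call. Whether the units bear on the rise was not tested, and these matches describe letters, not binding.

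The comparison asked how chaperone transcripts of drug-treated embryos stood against those of controls at 5 h. Of the probes on array design 1, 40 of 93 members (43.0%), from 20 genes, were higher at an adjusted p below 0.05 (limma, Benjamini-Hochberg over all 7680 probes) and 0 were lower, with 52 higher and 2 lower at an unadjusted p below 0.05. Over all probes of that design, 10.2% were called higher and 5.77% lower. On array design 2, 24 of 42 member probes (57.1%), from 18 genes, were higher and 2 were lower, compared with 19.8% and 8.07% of all 7599 probes. The median member probe stood at 0.20 on array design 1 and 0.17 on array design 2, and the median of all probes at -0.00 and 0.02. Above 0 were 75 of 93 and 34 of 42 members. In whole embryos a change in the share of a cell type and a change of RNA per cell cannot be told apart.

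The number of calls on array design 1 changed with the replicates and readouts used. Without replicate 4, 2 of the 40 probes called higher passed, both of Hspa8 (limma, 40 members higher at an unadjusted p below 0.05), beside 1.04% of all probes, and the median of the members was 0.16 against 0.20 with all replicates. Without replicate 2 a total of 21 member probes passed, beside 7.20% of all probes, at a median of 0.20. The plain readouts alone gave 23 members called higher, beside 5.73% of all probes, at a median of 0.19. The B readouts alone gave 0 (limma, 24 higher at an unadjusted p below 0.05), beside 0.0521% of all probes, at a median of 0.20. With the incomplete readout kept, 0 member probes passed on array design 1 (limma, 44 higher and 2 lower at an unadjusted p below 0.05), at a median of 0.20. Of all probes, 0.638% were then called higher. On array design 2 the count of members called higher ran from 17 to 24 as each replicate was left out, beside 11.7% to 23.6% of all probes. Of the 26 member calls, 17 stood whichever replicate was omitted. Those were of Hspa8 (3 probes), Dnajc10, Fkbp9 and St13 (2 each), Hsp90aa1, Serpinh1, Dnaja1, Cct5, Cct7, Hspa9, Fkbp1a and Pfdn5. With treated embryos in channel 1 and in channel 2, the gene means were 0.53 and -0.02 for Dnajc10, 0.52 and 0.01 for Cct7, and 0.61 and 0.07 for Fkbp9. Gene means of the others were above 0 in both orientations.

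Centring also bears on the direction. Before centring, the median of all probes lay between -0.23 and -0.44 in the replicates of array design 1 and between -0.12 and -0.66 in those of array design 2. Without centring, array design 1 had 9 members called higher and 39 lower, while array design 2 had 0 called higher and 24 lower (limma, 0 and 24 at an unadjusted p below 0.05). Of all probes, 60 were then called higher and 6338 of 7680 lower on array design 1, and 21 higher and 6634 of 7599 lower on array design 2. The 9 were the 7 probes of Hsp90aa1 and 2 of Hspa8. A rise here therefore means a rise relative to the median probe.

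**Figure D1:**
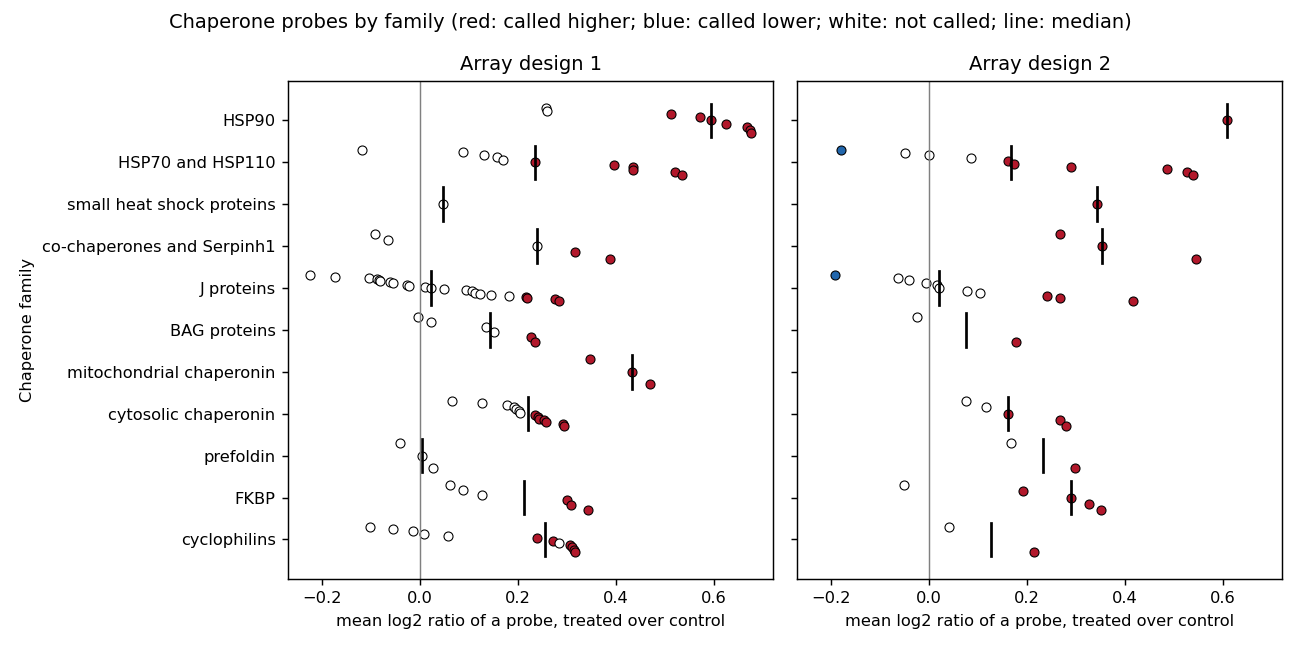
Mean log2 ratio (horizontal axis, treated over control, n = 5 replicates) of every chaperone probe, by family (vertical axis) and array design; each point is 1 probe, red is called higher, blue called lower and white not called by limma at an adjusted p of 0.05, and the bar is the family's median. HSP90 reaches 0.68 on array design 1, whereas the J proteins centre on 0.02 on both designs.

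HSP90 held the highest values of all families. All 7 probes of Hsp90aa1, the stress-inducible cytosolic HSP90, rose on array design 1 with log2 ratios of 0.51 to 0.68 (limma adjusted p = 0.0051 to 0.019), and its probe on array design 2 rose by 0.61 (SE 0.10, adjusted p = 7.42e-05). The mean over the 7 probes was -0.16, 0.82, 0.67, 0.68 and 1.07 in replicates 1 to 5 of array design 1, a mean of 0.62 ± 0.46 (SD, n = 5) or 1.53-fold. The probe on array design 2 read -0.08, 0.72, 1.09, 0.52 and 0.80. In both series of replicates the first was below 0 and the other 4 were at or above 0.52. With limma's robust prior the probe on array design 2 no longer passed (adjusted p = 0.080). Hsp90b1, the HSP90 of the endoplasmic reticulum, had a mean of 0.26 ± 0.33 (SD, n = 5) over 2 probes that did not pass (adjusted p = 0.070 and 0.072). Its replicates were -0.18, 0.34, 0.04, 0.43 and 0.65, again lowest in replicate 1.

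Among the members, the HSP90 co-chaperones Stip1, Fkbp4 and Ppid rose on array design 1, and Ahsa1 did not pass. Fkbp5, also an FKBP of HSP90 complexes, showed no rise. It read -0.05 on array design 2 (adjusted p = 0.48 by limma), with replicates between -0.16 and 0.06. Stip1, the adaptor that joins HSP70 to HSP90, rose on both probes of array design 1 by 0.39 and 0.32 (SE 0.10 each, limma adjusted p = 0.026 and 0.047). Its mean was -0.25, 0.43, 0.37, 0.49 and 0.72 in replicates 1 to 5. Ahsa1, which stimulates the ATPase of HSP90, read -0.17, 0.28, 0.41, 0.42 and 0.25, a mean of 0.24 ± 0.24 (SD, n = 5) that just missed the threshold (adjusted p = 0.0515). Ahsa1 stood at 1.01 with treated embryos in channel 1 and at -0.53 with them in channel 2 (dye effect, limma adjusted p = 0.0053). Fkbp4, a prolyl isomerase of HSP90 complexes, rose on its 3 probes by 0.30 to 0.34 (adjusted p = 0.01 to 0.018), with gene means of 0.06, 0.37, 0.21, 0.46 and 0.47. Ppid, the cyclophilin of the same complexes, rose by 0.24 (adjusted p = 0.043). Its replicates were -0.00, 0.19, 0.14, 0.30 and 0.56.

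The cytosolic HSP70 Hspa8, a constitutive chaperone, rose on every one of its 6 probes. The 3 probes on array design 1 had log2 ratios of 0.43, 0.53 and 0.52 (limma adjusted p = 0.012, 0.0020 and 0.0021) and those on array design 2 of 0.48, 0.54 and 0.53 (adjusted p = 1.01e-06, 6.24e-07 and 1.29e-06). The gene mean in replicates 1 to 5 was 0.24, 0.54, 0.21, 0.61 and 0.88 on array design 1. It was 0.38, 0.67, 0.61, 0.40 and 0.53 on array design 2. No replicate of either design was below 0 as the mean of both dye orientations, and the folds were 1.41 and 1.43. cDNA probes of Hspa8 can hybridise with transcripts of other HSP70 genes, which these files cannot separate.

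Hsph1, the HSP110 that exchanges nucleotide on HSP70, rose on both probes of array design 1 by 0.43 and 0.40 (SE 0.11 each, limma adjusted p = 0.018 and 0.033). Its mean read -0.27, 0.42, 0.74, 0.50 and 0.67, so replicate 1 lay apart from the other 4. Its values were 0.97 with treated embryos in channel 1 and -0.14 in channel 2 (dye effect, limma adjusted p = 0.040 and 0.0034). The mitochondrial HSP70 Hspa9 rose by 0.17 and 0.29 on array design 2 (adjusted p = 0.019 and 0.00026), with a gene mean between 0.20 and 0.32 in each replicate. Hspa4l, a further HSP110, rose by 0.16 (adjusted p = 0.044), while its relative Hspa4 was at 0.13 and did not pass (adjusted p = 0.19). St13, which stabilises HSP70 with its client, rose on both probes of array design 2 by 0.27 and 0.35 (adjusted p = 0.0012 and 6.16e-05), with gene means of 0.20 to 0.42.

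Hspa5 (BiP), the HSP70 of the endoplasmic reticulum, did not pass on any of 3 probes, at 0.09, 0.17 and 0.16 (limma adjusted p = 0.19 to 0.50). Its gene mean was -0.08, 0.14, -0.19, 0.32 and 0.51, on both sides of 0. Hspa14, a ribosome-associated HSP70, had a probe that rose by 0.24 (adjusted p = 0.023) and another at -0.12 that did not pass. Hspa12a, a distant HSP70, gave 1 of the 2 lower calls on array design 2, at -0.18 (adjusted p = 0.032), while its other probe stood at 0.08. Hspa13 (0.00) and the exchange factor Hspbp1 (-0.05) did not pass.

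**Figure D2:**
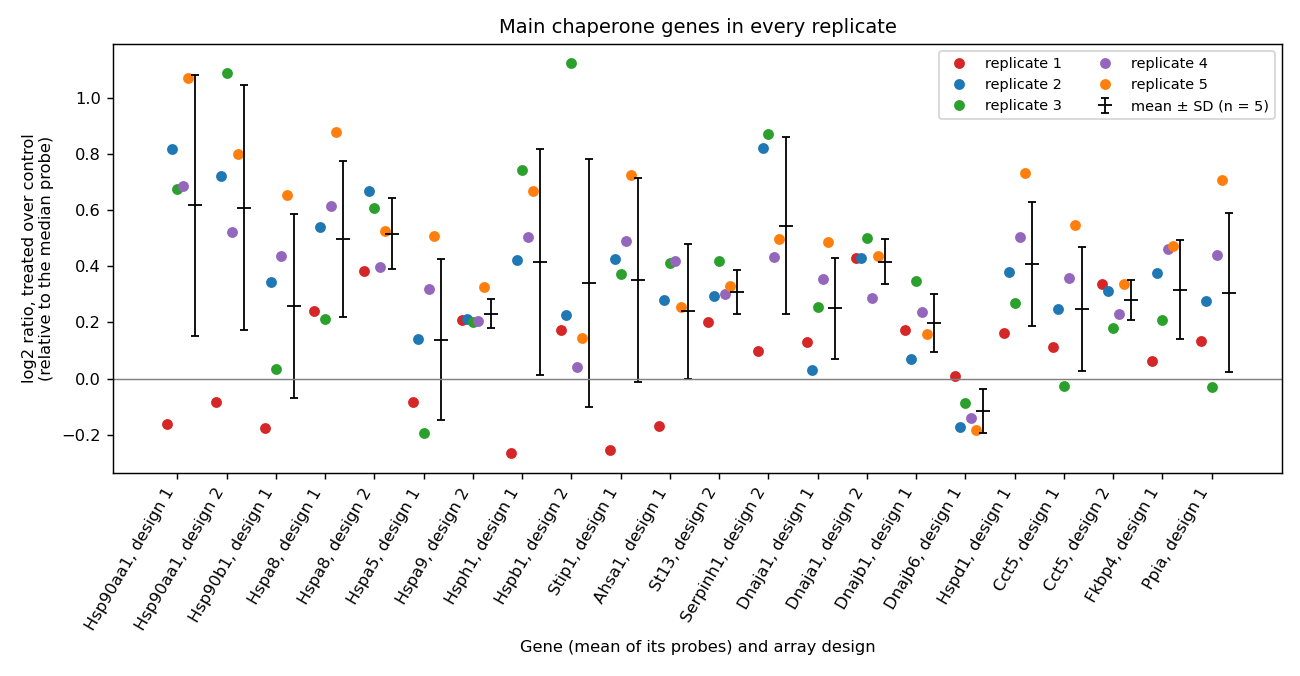
Log2 ratio of treated over control embryos (vertical axis, relative to the median probe) of the main chaperone genes, each the mean of its probes on the array design named on the horizontal axis; coloured points are the 5 replicates and the black bar is their mean ± SD. Replicate 1 of Hsp90aa1, Hsph1, Stip1 and Ahsa1 lies below 0 and their other replicates above 0.25, whereas all replicates of Hspa8 and Hspd1 lie above 0.

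A pattern seen in these values was then counted over all probes: replicate 1 below 0 and each other replicate above 0.25. It held for 17 of 7680 probes on array design 1, and 12 of the 17 were chaperones, namely the 7 probes of Hsp90aa1, the 2 of Hsph1, the 2 of Stip1 and the 1 of Ahsa1. The other named probes were of Atxn7l3b, B3gnt2 and Prkch. It held for 1 of 7599 probes on array design 2, that of Hsp90aa1. With the looser condition of other replicates above 0, the pattern held in 20 of 93 members (21.5%) and 4.13% of all probes of array design 1, and in 1 of 42 members and 0.145% of all probes of array design 2. Both conditions were chosen after the values had been seen and are given with no test.

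Serpinh1 (Hsp47), the collagen chaperone of the endoplasmic reticulum, rose by 0.54 (SE 0.08, limma adjusted p = 2.39e-05) on array design 2, or 1.46-fold. Its replicates were 0.10, 0.82, 0.87, 0.43 and 0.50, all above 0 with replicate 1 lowest. The small heat shock protein Hspb1 rose by 0.34 (adjusted p = 0.014), with values of 0.17, 0.23, 1.12, 0.04 and 0.15. Replicate 3 stood far above the rest, and without it Hspb1 had 0.15 and did not pass (adjusted p = 0.11). Hspb8 did not pass, at 0.05 with replicates of -0.18 to 0.42.

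Of the J proteins, few passed. Of 23 probes on array design 1, 4 rose, and of 11 on array design 2, 3 rose and 1 fell, with a median of 0.02 on each. Dnaja1, the abundant cytosolic partner of Hspa8, rose on all 3 probes, by 0.28 and 0.22 on array design 1 (limma adjusted p = 0.018 and 0.047) and by 0.42 on array design 2 (SE 0.05, adjusted p = 5.9e-06). Its gene mean was 0.13, 0.03, 0.26, 0.35 and 0.49 on array design 1 and 0.43, 0.43, 0.50, 0.29 and 0.44 on array design 2, above 0 in every replicate.

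Dnajb1 (Hsp40), the partner of stress-induced HSP70, rose on 1 probe by 0.28 (limma adjusted p = 0.012), with values of 0.10, 0.25, 0.36, 0.33 and 0.35, while its other probe stood at 0.12 (adjusted p = 0.23). Dnajc10, a disulfide reductase of the endoplasmic reticulum, rose on both probes of array design 2 by 0.24 and 0.27 (adjusted p = 0.0029 and 0.0010). Dnajc7 rose on 1 probe by 0.22 (adjusted p = 0.025) and stood at -0.08 on the other. Dnajc17 was the J protein that fell, by 0.19 on the log2 scale (adjusted p = 0.011), with replicates from -0.30 to -0.08.

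Other J proteins did not pass in either direction. Dnajb6, whose promoter window holds 3 units, stood at -0.05 and -0.17 (limma adjusted p = 0.55 and 0.064). Dnajb4, also with a pair of units near its start, stood at -0.08. Dnajb9, induced by unfolded protein in the endoplasmic reticulum, was at 0.02 on both designs, with replicates of -0.21 to 0.16 on array design 1 and -0.11 to 0.10 on array design 2. The lowest J protein, Dnajc14, was at -0.22 ± 0.30 (SD, n = 5, adjusted p = 0.090), and its replicate 4 read -0.70.

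The mitochondrial chaperonin Hspd1 (Hsp60) rose on both probes of array design 1, by 0.35 and 0.47 (limma adjusted p = 0.0069 and 0.0051). Its gene mean of 0.16, 0.38, 0.27, 0.50 and 0.73 gave 0.41 ± 0.22 (SD, n = 5) or 1.33-fold, above 0 in every replicate. A probe assigned to its pseudogene Hspd1-ps3 rose by 0.43 (adjusted p = 0.0058), with values of 0.07, 0.53, 0.31, 0.50 and 0.75. Transcripts of Hspd1 and a near-identical pseudogene may bind the same probe, so these are not separate measurements of 2 genes.

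The cytosolic chaperonin, which folds actin and tubulin, shifted by a smaller amount. Of its probes on array design 1, 7 of 14 rose and all 14 were above 0 (0.06 to 0.29), and on array design 2, 3 of 5 rose and all 5 were above 0 (0.08 to 0.28). Cct5 rose on both designs, by 0.25 and 0.24 (limma adjusted p = 0.036 and 0.045) and by 0.28 (adjusted p = 0.00040). Its gene mean was 0.11, 0.25, -0.03, 0.36 and 0.55 on array design 1 and 0.34, 0.31, 0.18, 0.23 and 0.34 on array design 2.

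Cct7 rose on 3 probes of array design 1 by 0.24 to 0.26 (limma adjusted p = 0.042 to 0.044) and on array design 2 by 0.27 (adjusted p = 0.00056). Cct8 rose by 0.29 (adjusted p = 0.036), and Cct2 on 1 of 2 probes by 0.16 (adjusted p = 0.029). Cct4 rose on 1 of its 2 probes of array design 1, by 0.29 (adjusted p = 0.023), and stood at 0.06 and 0.08 on the others. Tcp1 (0.20 and 0.13) and the 4 probes of Cct3 (0.18 to 0.20) did not pass. Prefoldin, which delivers clients to this chaperonin, had 1 probe of 5 that rose, Pfdn5 at 0.30 (adjusted p = 0.00051), with values of 0.50, 0.35, 0.22, 0.27 and 0.14. Pfdn1 (0.17), Pfdn4 (-0.04) and Pfdn6 (0.03 and 0.00) did not pass.

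Among the prolyl isomerases, Fkbp9 of the endoplasmic reticulum rose on both probes of array design 2 by 0.33 and 0.35 (limma adjusted p = 0.00013 and 3.52e-05), with gene means of 0.23 to 0.42 in its replicates. Fkbp1a, the FKBP12 that binds rapamycin, rose by 0.29 (adjusted p = 0.00078) and Fkbp3 by 0.19 on array design 2 (adjusted p = 0.014) but not on array design 1 (0.06, adjusted p = 0.50). Fkbp5, Fkbp8 and Fkbp15 did not pass, at -0.05, 0.09 and 0.13.

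Ppia (cyclophilin A) rose on 4 of 5 probes of array design 1 by 0.31 to 0.32 (limma adjusted p = 0.024 to 0.034), with gene means of 0.14, 0.28, -0.03, 0.44 and 0.71. With treated embryos in channel 1 it stood at -0.08 and with treated embryos in channel 2 at 0.69 (dye effect, limma adjusted p = 0.14 to 0.32). The 5 probes read 0.34 to 0.45 in replicate 2 and 1.05 to 1.29 in replicate 5 with treated embryos in channel 1, against -0.03 to 0.29 and 0.25 to 0.32 with them in channel 2. In replicates 1, 3 and 4 they read -1.02 to -0.05 with treated embryos in channel 1 and 0.72 to 1.28 with them in channel 2. Ppia has many processed pseudogenes, whose transcripts the probes may bind. Ppic, a secretory pathway cyclophilin, rose by 0.27 (adjusted p = 0.018), and Ppig rose on 1 of 2 probes of array design 2 by 0.21 (adjusted p = 0.0095) and on none of 3 on array design 1 (-0.10 to 0.06). Ppie and Ppih did not pass, at -0.05 and -0.02.

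The BAG proteins had 3 probes that rose of 8. Bag3, a stress-induced co-chaperone of HSP70 in autophagy, rose on 1 probe by 0.23 (limma adjusted p = 0.021), with values of 0.24, 0.09, 0.37, 0.23 and 0.24, and read -0.00 on the other. Bag2 rose by 0.23 on array design 1 (adjusted p = 0.027) and Bag1 by 0.18 on array design 2 (adjusted p = 0.042), the latter with 1 replicate at -0.10. Bag4 (0.02 and 0.15), Bag5 (-0.03) and Bag6 (0.13) did not pass.

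Over the 11 genes on both designs, each design's own values gave calls on both for Hsp90aa1, Hspa8, Dnaja1, Cct5 and Cct7. Cct4 was called on array design 1, and Fkbp3 and Ppig on array design 2. Dnaja2 (0.18 and -0.01), Dnajb9 (0.02 and 0.02) and Dnajc21 (-0.03 and -0.04) were called on neither.

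Between the dye orientations, 54 of 93 members of array design 1 and 26 of 42 of array design 2 had the same sign, as did 2094 of 7680 and 2600 of 7599 of all probes. Of the probes called higher, 31 of 40 on array design 1 and 20 of 24 on array design 2 were above 0 in both orientations, and 19 of 40 and 22 of 24 were above 0 in all 5 replicates. A dye effect, tested on the mean of the ratios without turning, was called for 10 of 93 members of array design 1 and 16.8% of its probes, and for 0 of 42 members of array design 2, where 0% of all probes passed (limma, 4 members and 1431 probes at an unadjusted p below 0.05). Ppih (0.79 and -0.82), Dnaja3 (gene mean 0.66 and -0.60) and Pfdn6 (0.42 and -0.39) had opposite signs with treated embryos in channel 1 and in channel 2. As means of 5 replicates, Hspa8 (0.32 and 0.68 on array design 1, 0.32 and 0.71 on array design 2), Hsp90aa1 (0.52 and 0.71, 0.52 and 0.70) and Hspd1 (0.44 and 0.38) were above 0 in each orientation. Single replicates differed. With treated embryos in channel 1, the 3 Hspa8 probes of array design 1 read -0.58 to -0.45 in replicate 1 and -0.46 to -0.22 in replicate 3. They read 0.11 to 1.57 in replicates 2, 4 and 5. With treated embryos in channel 2 they read 0.05 to 1.13 in all 5 replicates.

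**Figure D3:**
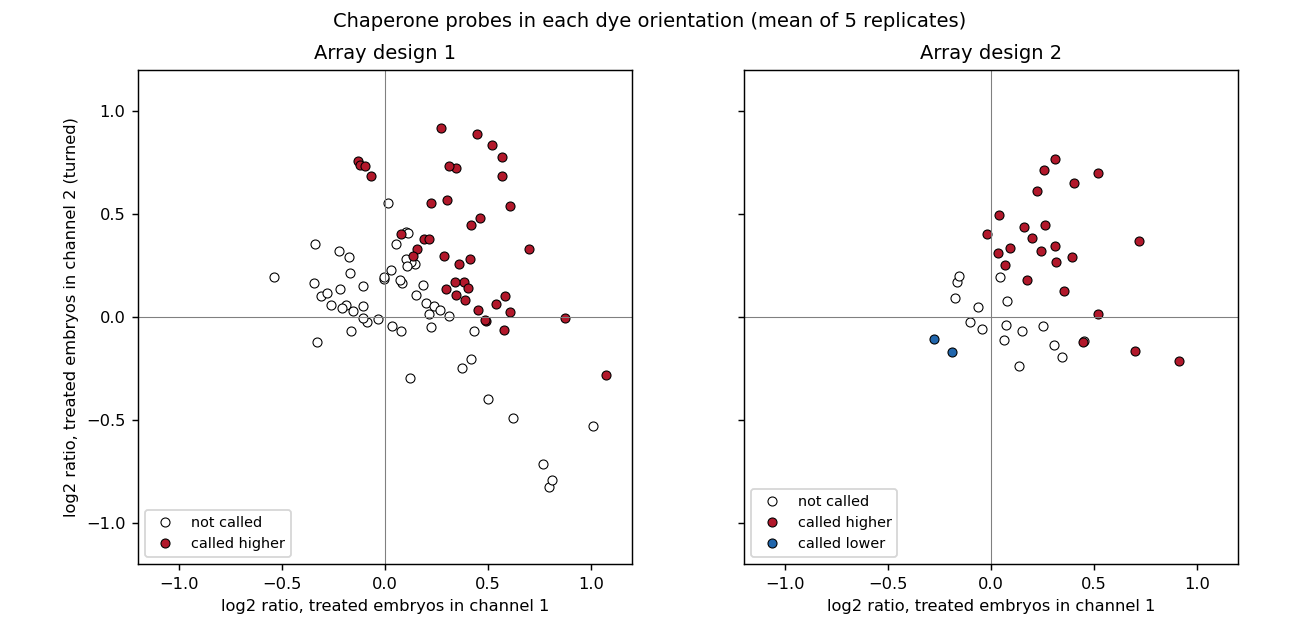
Mean log2 ratio of each chaperone probe over 5 replicates on arrays with treated embryos in channel 1 (horizontal axis) against arrays with treated embryos in channel 2 (vertical axis, sign turned), for both array designs; red is called higher, blue called lower and white not called. Points at upper right are above 0 in both orientations, as were 31 of 40 and 20 of 24 probes called higher, and points at lower right or upper left change sign with the dye.

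Each replicate's ratios also followed a smooth trend along the dye profile of the probes, fitted on 3 principal components of the dye effects, which took 34.5% to 74.0% of the variance of the treatment ratios on array design 1 and 35.3% to 61.5% on array design 2. With that trend removed, 3 members were called higher on array design 1, 2 probes of Hspa8 (0.28 and 0.26, limma adjusted p = 0.025 and 0.021) and 1 of Bag3 (0.19, adjusted p = 0.039), and 0 lower, where 0.99% and 0.612% of all probes were called higher and lower (at an unadjusted p below 0.05, 26 and 7 members). On array design 2, 4 were higher, 2 probes of Hspa8 (0.20 each, adjusted p = 0.027 and 0.045), Dnaja1 (0.24, adjusted p = 0.017) and 1 of Fkbp9 (0.17, adjusted p = 0.045), and 1 was lower, Fkbp5 (-0.15, adjusted p = 0.029), against 3.24% and 1.95% of all probes. The member medians fell to 0.03 and 0.07, with all probes at -0.00 and 0.00.

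The families kept different parts of their size after this step. Hsp90aa1 stood at 0.29 to 0.41 on its 7 probes of array design 1 and at 0.38 on array design 2 (limma adjusted p = 0.15 to 0.31). Serpinh1 stood at 0.33 and Hspb1 at 0.36 (adjusted p = 0.13 and 0.17). The chaperonin Hspd1 had 0.20 and 0.22. The median of the cytosolic chaperonin probes on array design 1 went from 0.22 to -0.02 and that of the cyclophilins from 0.25 to -0.02. The median of the 7 Hsp90aa1 and 2 Hsp90b1 probes together went from 0.59 to 0.32. The 2 Hsp90b1 probes alone went from 0.26 each to -0.0068 and -0.0057.

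**Figure D4:**
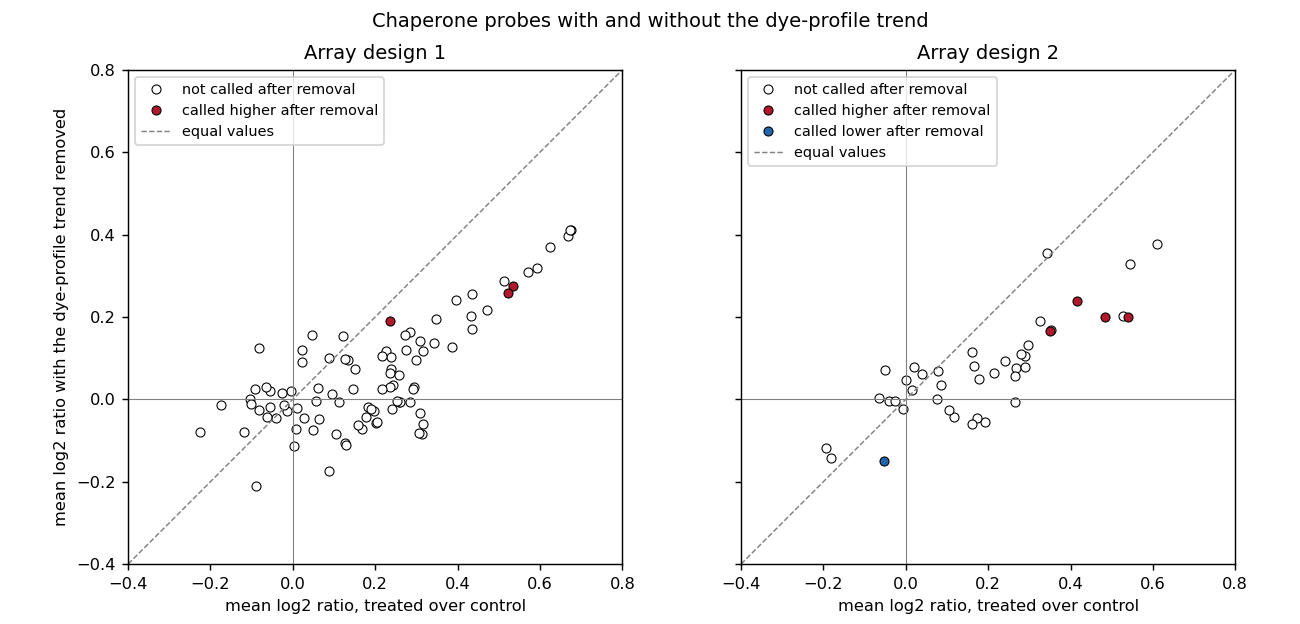
Mean log2 ratio of each chaperone probe (horizontal axis) against its value with the dye-profile trend removed (vertical axis), n = 5 replicates, with the line of equal values; red and blue are called higher and lower after removal. Most points lie below the line, and 3 probes on array design 1 and 4 on array design 2 are called higher after removal.

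The slide number series, 2000 or 3000, is a further split in the labels. A difference between series was called for 0 of 93 members and 0.013% of probes of array design 1 and for 0 of 42 members and 0% of probes of array design 2 (limma, 9 and 2 members at an unadjusted p below 0.05). Within series 2000 of array design 1 (replicates 1 and 2), 2 members and 0.768% of all probes were called higher, and within series 3000 (replicates 3 to 5) 22 members and 3.65%. For array design 2, 20 members and 20.2% of all probes were called higher within series 2000 (replicates 1 to 3), and 15 members and 9.99% within series 3000 (replicates 4 and 5).

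Other genes of protein folding and turnover were counted from a fixed list of 52. Of this list, 11 of 31 probes on array design 1 (23 genes) rose and 0 fell (limma, 14 and 0 at an unadjusted p below 0.05), with a median of 0.14, and on array design 2, 13 of 20 probes (15 genes) rose and 1, the tubulin cofactor Tbcd, fell, with a median of 0.22. The chaperone members had medians of 0.20 and 0.17. Pdia3, a disulfide isomerase of the endoplasmic reticulum, rose by 0.49 (limma adjusted p = 8.84e-07). The lectin chaperone Canx rose by 0.46 on 1 of its probes of array design 2, stood at 0.14 on another, and rose by 0.41 and 0.37 on its probes of array design 1 (limma adjusted p = 0.0064 and 0.0072). The HSP90 co-chaperones Cdc37 (0.15 and 0.08) and Unc45a (-0.02) did not pass on array design 1 (limma adjusted p = 0.12, 0.37 and 0.86). Chordc1, also an HSP90 co-chaperone, rose by 0.24 and 0.25 on array design 1 (limma adjusted p = 0.043 and 0.037). On array design 2 Chordc1 rose by 0.20 (limma adjusted p = 0.012). With the trend removed, 2 of the 20 list probes of array design 2 were called higher, these of Pdia3 and Canx (limma adjusted p = 0.031 and 0.012), and 0 of 31 on array design 1 (limma, 5 higher at an unadjusted p below 0.05).

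Markers of other cell types moved on these arrays as well. Of the erythroid list, 7 of 9 probes rose on array design 2, from 0.29 to 0.63 and all of globins, at a list median of 0.58, while Alas2 and Slc4a1 did not pass, and the 1 probe on array design 1, Gata1, stood at -0.10 and did not pass. Of the visceral endoderm and yolk sac list, 0 of 5 and 0 of 2 probes passed (limma, -0.20 to 0.06 and -0.13 to -0.02), and 1 on each design was lower at an unadjusted p below 0.05. Of the placenta and decidua list, 2 of 5 probes fell on array design 1 (-0.23 to 0.01) and 1 of 3 on array design 2 (-0.18 to 0.12). The part of these cell types in the chaperone values was not tested.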

How the data were processed

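Ratios of treated over control embryos were measured on 2-colour cDNA arrays. The deposited values are log2 ratios by assumption. Base, numerator, scanner and the authors' normalization do not appear in the labels or headers and so were not given in the sources used here. Probes were named through the platform annotation, and spots of one accession on a design were averaged. Array columns were centred on their median. Readouts lacking over 5% of values were left out. For each replicate, readouts were averaged, then both dye orientations after turning, giving 1 value per replicate, tested two-sided against 0 within each design (lmFit and eBayes of limma 3.58.1, R 4.3.3), with Benjamini-Hochberg adjustment over all its probes and a threshold of 0.05. The dye-profile trend was fitted with mgcv 1.9.3 (bases of 40 and 8). The fit was checked on simulated data: with 200 changed probes, 94% of changes of 0.5 (log2) and 100% of changes of 1 were recovered on each design of 7680 and 7599 probes. On array designs 1 and 2, 7 and 10 unchanged probes were also called. The simulated noise was drawn separately for each probe, so the check does not cover a trend shared by many probes. Named are all called members (the 30 largest where more passed), each family's highest and lowest probe, genes on both designs and 16 fixed heat shock genes. Other members are named for their values. Members and lists were chosen with earlier results of these data known. Alternatives covered centring, scaling, readouts, orientations, series, replicates, fits and thresholds.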

Additional observations from a re-analysis of the deposited data

Results flagged for a closer look

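In 4 of the named probes, 1 of the 5 replicates lay further from its nearest neighbour than Dixon's 95% limit for 5 samples (0.71 of the range) allows. Chance passes this limit in about 1 of 20 groups, and 91 named probes were examined. Hsph1 (probe 1, array design 1) read -0.23 in replicate 1, with the nearest replicate at 0.46. Stip1 (probe 2, array design 1) read -0.31 in replicate 1, with the nearest at 0.39. Ppig (probe 1, array design 2) read 0.47 in replicate 1, with the nearest at 0.18. Hspb1 (array design 2) read 1.12 in replicate 3, with the nearest at 0.23.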

How the results depend on the processing

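Among the named members, the sign of a value called in either of the fits compared changed only without centring, with 1 orientation alone or with the dye-profile trend removed. Without centring, members lower on array design 1 were 39, all probes called came to 6398 and 6655, member probes with a dye effect on array design 1 to 0, and these members turned, as log2 ratios. On array design 1 they were Bag3 -0.078, Cct4 -0.25 and -0.019, Cct5 -0.059 and -0.072, Cct7 -0.056, -0.070 and -0.078, Cct8 -0.020, Dnaja1 -0.029 and -0.095, Dnajb1 -0.038 and -0.19, Dnajb9 -0.29, Fkbp3 -0.25, Fkbp4 -0.0045 and -0.013, Hspa5 -0.22, Hspb8 -0.27, Pfdn6 -0.29, Ppia -0.0073 and -0.0032, Ppic -0.042, Ppig -0.31 and -0.26. On array design 2 they were Bag1 -0.25, Cct2 -0.27, Cct4 -0.35, Cct5 -0.15, Cct7 -0.16, Dnaja1 -0.013, Dnajb9 -0.41, Dnajc10 -0.19 and -0.16, Fkbp1a -0.14, Fkbp3 -0.24, Fkbp9 -0.10 and -0.080, Hspa4l -0.27, Hspa9 -0.26 and -0.14, Hspb1 -0.088, Pfdn1 -0.26, Pfdn5 -0.13, Ppig -0.22 and -0.39, St13 -0.16 and -0.076. With treated embryos in channel 1 alone, 16 members were called higher and 1 lower on array design 1 and 4 and 0 on array design 2 (limma, 9 and 1 at an unadjusted p below 0.05), of 2324 and 1190 probes called, and the members that turned were Ppia -0.13, -0.12, -0.098 and -0.067 and Fkbp3 -0.022. In channel 2 alone, 21 were higher and 4 lower, then 0 and 0 (limma, 8 and 0 unadjusted), with 117 probes called on array design 2, and Cct4 -0.49, Cct7 -0.065 and -0.016, Hsph1 -0.0038 and -0.28, Pfdn6 -0.71 turned on array design 1 and Dnajc10 -0.17, Fkbp9 -0.21, Hspa4l -0.12 on array design 2. With the trend removed, 3 members were higher on array design 1, 4 higher and 1 lower on array design 2, of 123 and 394 probes called, and Cct5 -0.0032 and -0.023, Ppia -0.085, -0.083, -0.059 and -0.034 turned on array design 1 and Cct2 -0.061, Cct7 -0.0055, Fkbp3 -0.055, Hspa9 -0.046 on array design 2. With all readouts kept, array design 1 had 0 members higher of 50 probes called (limma, 44 unadjusted). Plain readouts gave 23 of 501 on array design 1 and 0 members lower of 1076 on array design 2 (limma, 2 unadjusted). B readouts gave 0 of 4 on array design 1 (limma, 24 higher at an unadjusted p below 0.05) and 1 lower member on array design 2. A term for slide series gave 24 of 568 on array design 1. Series 2000 gave 2 of 60 there and 1 lower member on array design 2. Series 3000 gave 22 of 281, then 15 higher and 0 lower of 811 (limma, 1 lower unadjusted). At an adjusted p below 0.01, 11 members of 231 probes passed on array design 1, and 0 members lower of 1043 on array design 2 (limma, 2 unadjusted). With genes as the unit 17 genes were higher on array design 1 and 1 lower on array design 2. With arrays scaled to 1 spread, 576 and 1331 probes were called, 5 members differed between series and 22 had a dye effect on array design 1, and 1 member was lower on array design 2, as with replicate weights. Single arrays with the replicate block called 745 probes on array design 1. As each replicate was left out, members higher on array design 1 ran from 2 to 43, lower from 0 to 1 and all probes from 82 to 1074, while on array design 2 members lower ran from 0 to 2, all probes from 1013 to 2637 and members with a dye effect from 0 to 1. The causes were not tested. Each ratio already compares treated with control embryos within an array. The arrays form 1 group, so replicate numbers pair no further groups.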
